A study of Mus musculus with 32 samples.

Results

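The depletion of SRSF7 was examined in the cytoplasm of P19 cells, a mouse embryonal carcinoma line, through 4 of the 32 RNA-seq libraries of the study. These were the cytoplasmic libraries of SRSF7 knockdown replicates A and B and those of GFP control replicates A and B, chosen by their labels. In the study 7 SR proteins (SRSF1 to SRSF7) were knocked down one at a time with custom esiRNAs, which are enzymatically cut pools of short double-stranded RNAs, carried into the cells by lipofection for 36 h. The mock-transfected control received an esiRNA against GFP, so control and knockdown cells shared the transfection, and no other allele or drug was named. Cells were split into a cytoplasmic fraction and a whole-cell lysate, RNA was extracted with TRIzol, and poly(A)+ RNA was selected and sequenced from TruSeq libraries. All groups came from 1 cell line, and the study's methods call A and B biological replicates while the labels do not say whether these were separate cultures, so the p-values measure only the spread between these libraries. The letters did mark shared differences across groups, so they were kept as a block unless stated otherwise.

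SRSF7 is a member of the SR protein family and carries an RNA recognition motif, a zinc knuckle and a domain rich in arginine and serine. SR proteins bind exons and 3′ UTRs of mRNAs, where they take part in splice site choice, in processing of the 3′ end and in export. For export they act as adaptors of NXF1, the main receptor that carries mRNAs through the nuclear pore. The comparison of knockdown and control in the cytoplasm addresses which mRNAs, and which forms of them, differ in cytoplasmic level when SRSF7 is scarce. This level alone does not separate export from other changes in expression. For that purpose the paper set cytoplasmic levels against whole-cell levels.

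The 4 libraries held between 42726617 and 63477689 reads in exon bins, the non-overlapping segments of annotated exons in which reads were counted. All 8 markers of P19 cells, such as *Pou5f1* and *Sox2*, had a median of at least 100 scaled reads (estimated reads per gene, scaled by the authors to a common depth), with sums of 169487 and 164015 in the knockdown and 151261 and 152870 in the control. Transcripts of the exocrine pancreas, which P19 cells do not make, summed over 13 genes to 614 in knockdown A and 662 in control A, but to 52.8 in knockdown B and 48.8 in control B. Transcripts of salivary and lacrimal glands summed over 9 genes to 1101 and 1104 in the A libraries and to 1.76 and 2.93 in the B libraries. In these 4 libraries both sums went with the letter, while in the other knockdowns the pancreas sum ranged from 51.6 to 739 in A and from 32.4 to 46.6 in B.

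*Srsf7* (ENSMUSG00000024097) was lower in the knockdown, at 1680 scaled reads in A and 1649 in B, against 3572 and 3637 in the control. The groups did not overlap, with means of 1665 ± 22 and 3604 ± 45.9 (SD, n = 2), so that 46.2% of the control level remained. The 12 cytoplasmic libraries of the other knockdowns ranged from 2745 to 6784 (median 4516), all above the SRSF7 knockdown. Expressed per length, the authors' pooled FPKM was 22.9 in the knockdown and 49.6 in the control. In the fit over all genes of the 16 cytoplasmic libraries the log2 fold change against GFP was -1.13 (SE 0.21, limma adjusted p = 0.0551), just short of the threshold of 0.05. Against the mean of the 6 other knockdowns it was -1.39 (SE 0.16, limma adjusted p = 0.000996), which passed. It also passed against GFP in the whole cell (-1.01, SE 0.21, limma adjusted p = 0.0386), and in the cytoplasm when reads were summed over exon bins (-1.11, edgeR adjusted p = 0.0462). The whole-cell value came from another fit, over all 32 libraries. Its unadjusted limma p was no smaller than that in the cytoplasm (7.56e-05 and 6.6e-05), so passing there does not mark a stronger effect. Against GFP in the cytoplasm it passed with a pseudocount of 10 (limma adjusted p = 0.0425). It did not pass without the filter on low values (limma adjusted p = 0.131), with the scaling as deposited (0.0697) or without the block. Without 1 library the estimate ranged from -0.83 (without control B) to -1.43 (without control A). In these bulk samples fewer cells with the transcript and less RNA per cell cannot be told apart.

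**Figure D1:**
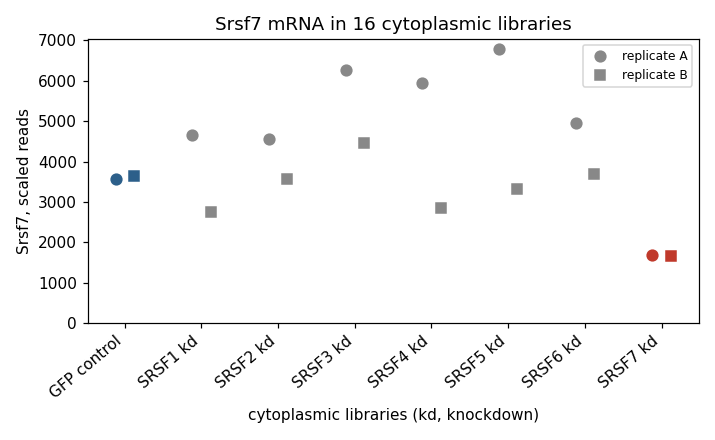
Scaled reads of *Srsf7* (vertical axis, from 0) in the 16 cytoplasmic libraries, by group (horizontal axis), with circles for replicate A and squares for replicate B. The SRSF7 knockdown (red) lay at 1680 and 1649, below the GFP control (blue, 3572 and 3637) and below all 12 libraries of the other knockdowns (gray, from 2745).

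Of 13 *Srsf* and *Tra2* genes tested none passed against GFP, the median log2 change was -0.14 (all genes -0.01), and apart from *Srsf7* the values lay between -0.29 (*Srsf10*) and 0.15 (*Srsf2*). *Srsf3*, the closest relative of SRSF7, was at 6515 and 5896 in the knockdown and at 7172 and 6254 in the control, and these groups overlapped. Against the other knockdowns *Srsf11* was lower too (-0.66, SE 0.15, limma adjusted p = 0.0228). Its level of 2081 and 1474 overlapped with the control (2344 and 1677).

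Of 17563 genes tested for total cytoplasmic level over the 16 libraries, 7 were higher (0.0399%) and 6 lower (0.0342%) than in GFP at a limma adjusted p below 0.05. These numbers turned on the form of the fit, with 892 and 725 from the 4 libraries alone with the letter as a block, 84 and 93 from DESeq2 on summed exon-bin reads, and 0 and 0 over 16 libraries without the block. At an unadjusted p below 0.05 these were 930 (5.30%) and 1017 (5.79%). The calls depended on single libraries. When knockdown A was left out, 1 gene was higher and 0 lower. Leaving out knockdown B gave 2 and 7, control A 1 and 0, and control B 7 and 6. Of the 12 called genes with a mean of at least 50, leaving out knockdown A kept 1, knockdown B 6, control A 1 and control B 7.

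*9930005F22Rik* (ENSMUSG00000073672) had the largest increase, from 8.05 and 4.88 in the control to 198 and 90.6 in the knockdown. The groups lay far apart, and the 12 libraries of other knockdowns stayed at 76.8 or below. Its log2 change was 4.19 (SE 0.40, limma adjusted p = 0.000343), and it was the gene that passed without any 1 of the 4 libraries (adjusted p from 0.00416 to 0.0362). Its whole-cell change was 3.30 (limma adjusted p = 8.56e-05).
*Zfp369*, which encodes a zinc finger protein, was at 517 and 510 against 179 and 235, above every library of the other knockdowns (at most 445). Its log2 change of 1.30 (SE 0.17, limma adjusted p = 0.00576) stood beside 0.30 in the whole cell, which did not pass (0.554). *Coro6*, a gene of an actin-binding coronin, was at 297 and 327 against 118 and 151 (1.20, SE 0.21, limma adjusted p = 0.0407), with up to 324 in the other knockdowns. Its whole-cell value was 0.13. *Usb1*, whose product trims the end of a spliceosomal RNA, was at 2502 and 2927 against 1401 and 1871 (0.72, SE 0.11, limma adjusted p = 0.0248). It rose in the whole cell as well (0.64, 0.00395), and the other knockdowns reached 2921 in the cytoplasm. *2610528A11Rik* was at 123 and 78.3 against 33.3 and 25.4 (1.70, SE 0.29, 0.0387), although 1 library of another knockdown reached 303.
*Fam69a* was at 1141 and 888 against 503 and 450 in the gene table (1.06, SE 0.17, limma adjusted p = 0.0308), with up to 1413 in the other knockdowns. Its value had the opposite sign when the reads of its exon bins were summed (-0.18 by limma, edgeR and DESeq2), so its direction is uncertain. *Gsdmc4*, a gasdermin gene with near-identical neighbors, was at 35.6 and 30.8 against 2.30 and 0.976 (3.72, SE 0.62, 0.0380). It lay below the mean of 50 required for naming and was added after the calls were seen.

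None of the 6 lower genes overlapped with the control, which follows largely from their choice by a test on these libraries. *Cmas*, which encodes the enzyme that activates sialic acid, was at 1681 and 2053 against 3553 and 3692, below all other knockdown libraries (from 2567). Its log2 change was -0.98 (SE 0.12, limma adjusted p = 0.00558), and it was -0.99 in the whole cell. *Ppic*, a gene of the peptidyl-prolyl isomerase cyclophilin C, was at 120 and 165 against 332 and 363 (-1.32, SE 0.17, 0.00576), with -1.15 in the whole cell (0.00157). *Mtr*, the gene of methionine synthase, was at 389 and 402 against 872 and 663 (-0.96, SE 0.15, 0.0215).
The knockdown levels of *Mtr* and *Oas3* were likewise below all 12 other libraries. *Oas3*, an interferon-inducible oligoadenylate synthetase gene, was at 62.3 and 69.5 against 168 and 142 (-1.24, SE 0.21, limma adjusted p = 0.0407). *Rgs17*, which encodes a regulator of G protein signaling, was at 279 and 520 against 730 and 906 (-1.11, SE 0.15, limma adjusted p = 0.00576), but at 654 and 939 against 808 and 919 in the whole cell, where it did not pass (-0.13). *Tube1*, the gene of epsilon-tubulin, was at 322 and 644 against 828 and 1096 (-1.08, SE 0.16, 0.0135). For *Rgs17* and *Tube1* knockdown A was well below knockdown B, and both lay below the control. Libraries of other knockdowns fell below knockdown B too, to 469 for *Rgs17* and 550 for *Tube1*.

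**Figure D2:**
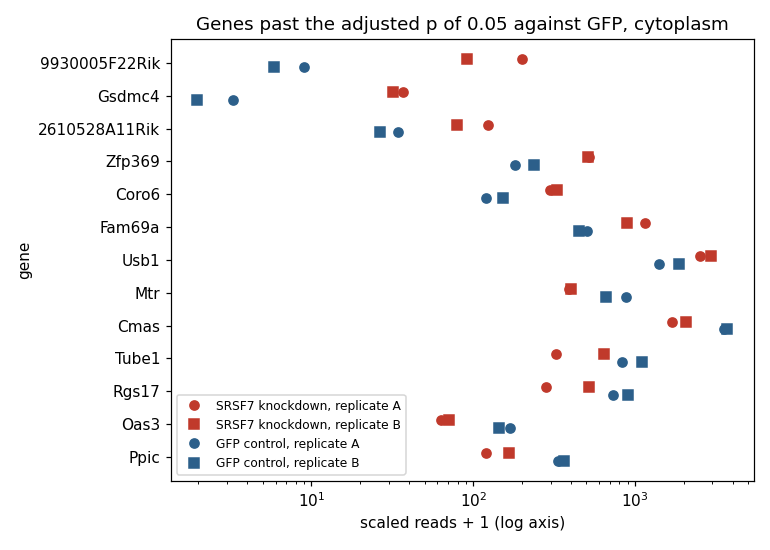
Scaled reads + 1 on a log axis (horizontal) of the 13 genes past an adjusted p of 0.05 (vertical), with red for the SRSF7 knockdown, blue for the GFP control, circles for replicate A and squares for replicate B. Red and blue points did not overlap for any of the 13 genes, and the widest gap was that of *9930005F22Rik* (198 and 90.6 against 8.05 and 4.88). The genes were picked by a test on these libraries, so the lack of overlap follows largely from that choice.

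The genes next to the threshold were at an adjusted p of 0.0551, as *Srsf7* was. *Cpeb1*, which encodes a protein that binds cytoplasmic polyadenylation elements, was at 1211 and 1071 against 607 and 689, above the 12 other libraries (up to 827). *Mapkapk2*, a kinase gene of the stress-activated MAP kinase route, was at 10598 and 10377 against 6264 and 7488, also above the others (up to 9440). *Mtx3* (274 and 216 against 116 and 108) and *2610318N02Rik* (2762 and 2445 against 1368 and 1691) were the remaining ones on the higher side. For these 2 genes the other knockdowns reached 325 and 2993. On the lower side *Mre11a*, a gene of DNA break repair, was at 939 and 935 against 1684 and 1405. *Prtn3* (18.8 and 85.4 against 93.1 and 165) and *2810408A11Rik* (145 and 224 against 453 and 361) were the remaining ones on the lower side. All 7 passed with edgeR on summed exon-bin reads, a test added after the data were seen.

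Set against the 6 other knockdowns, which received esiRNAs too, SRSF7 depletion had 369 genes higher (2.10%) and 509 lower (2.90%). The contrast used the same SRSF7 libraries, and it depended on both of them. Without knockdown A none passed in either direction, and without knockdown B 27 were higher and 54 lower. *Mesp1*, a transcription factor gene of early mesoderm, was at 67.2 and 124 against at most 42.5 in the 12 other libraries (2.10, SE 0.33, limma adjusted p = 0.00425), but control B was at 50.7. *Bnip3*, a mitophagy gene induced by hypoxia, was at 1445 and 2075 against at least 2733 (-1.09, SE 0.17, 0.00425), with the control at 3296 and 3167. *Adnp*, a gene of a chromatin-bound homeobox protein, had 38.5 and 42.9 against at least 59.6 (-1.49, SE 0.28, 0.0107).
*Lpin1*, which encodes a phosphatidate phosphatase, was at 385 and 254 against a median of 667 (-1.11, SE 0.13, limma adjusted p = 0.00116). Some of these contrasts came with a control that stood beside the SRSF7 knockdown. *Snhg5*, a host gene of small nucleolar RNAs, was at 1473 and 1256, above the other knockdowns (up to 922), while the control was at 1046 and 1182. *Nupr1*, a stress-induced gene, was at 279 and 709 against 293 and 636 in the control (0.02 against GFP), yet 1.19 above the other knockdowns (SE 0.25, limma adjusted p = 0.0145).

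The gene lists are read against the shares of all genes, which were 0.0399% higher and 0.0342% lower against GFP and 2.10% higher and 2.90% lower against the other knockdowns. Of 23 genes of NXF1 and the TREX export complex none passed against GFP (median 0.01), and *Nxf1* itself was at 4595 and 3828 against 4417 and 3928. *Alyref*, an export adaptor gene of that complex, was at 9480 and 9329 against 5967 and 7812 and was the 1 member that passed against the other knockdowns (0.46, SE 0.12, limma adjusted p = 0.0345). Of 22 cleavage and polyadenylation factors none passed against GFP (median -0.09). Against the other knockdowns 3 were lower, *Pabpc4* (-0.62, limma adjusted p = 0.00425), *Fip1l1* (-0.43, 0.0286) and *Clp1* (-0.41, 0.0320), with a list median of -0.17 (all genes 0.02).
*Pabpc4*, a gene of a cytoplasmic poly(A)-binding protein, was at 7698 and 6881 against 12041 and 9043, and *Fip1l1*, a gene of the CPSF complex, was at 2576 and 1889 against 3657 and 2575. The latter overlapped with the control. Among 6 kinases of SR proteins (median -0.36, none past the threshold against GFP) *Clk2* was at 1235 and 1647 against 2030 and 2137 and was lower against the other knockdowns (-0.38, limma adjusted p = 0.0346). Of 25 hnRNP genes none passed against GFP (median -0.13), and *Hnrnpc* (-0.51, limma adjusted p = 0.00425), *Pcbp1* (-0.54, 0.0231) and *Hnrnpa1* (-0.39, 0.0466) were lower against the other knockdowns. None of 15 factors of nonsense-mediated decay passed in either contrast (medians 0.02 and 0.04).

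Lists of metabolic and growth genes had members past the threshold only in the contrast with the other knockdowns, where more genes of all kinds passed. Of 22 cholesterol synthesis genes none passed against GFP (median -0.07), while 5 were lower against the other knockdowns (median -0.24), among them *Insig1* (-0.75, limma adjusted p = 0.0173) and *Hmgcs1* (-0.68, 0.0232). Of 20 chaperones of the endoplasmic reticulum *Hspa5*, the gene of the chaperone BiP (-0.78, limma adjusted p = 0.00637), and *Edem1* (-0.43, 0.0380) were lower against the other knockdowns, and none passed against GFP (medians -0.21 and 0.08). *Hspa5* was at 3727 and 2377 in the knockdown and 4139 and 1947 in the control, so the groups overlapped. Of 26 DNA replication genes 4 (*Pcna*, *Cdc6*, *Orc1*, *Rrm2*) and of 20 mitosis genes 2 (*Ccnb1*, *Kif20a*) were lower against the other knockdowns, with values from -0.31 to -0.45, and none against GFP (medians -0.07 and -0.19).
None of 20 pluripotency genes, 18 p53 pathway genes, 20 integrated stress response genes, 15 interferon response genes, 21 glycolysis and hypoxia genes, 8 snoRNA host genes or 81 ribosomal protein genes passed against GFP, and their medians lay between 0.06 and 0.24. Against the other knockdowns the numbers higher and lower were 0 and 1 for pluripotency genes (*Dnmt3b*), 1 and 1 for p53 genes (*Phlda3*, *Btg2*), 2 and 0 for stress response genes (*Nupr1*, *Cebpb*) and 2 and 0 for interferon genes (*Isg15*, *Bst2*, in a list that does not hold *Oas3*). They were 1 and 2 for glycolysis and hypoxia genes (*Pfkp*, *Hk2*, *Bnip3*), 1 and 0 for snoRNA host genes (*Snhg5*) and 1 and 0 for ribosomal protein genes (*Rps21*). The 8 nuclear long noncoding RNAs (median 0.24) and 14 keratin and cytoskeletal genes (median 0.05) had no member past the threshold in either contrast.

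The replication-dependent histone genes, a list of 25 given by name, had the largest median of the lists. Their mRNAs normally end in a stem-loop and carry no poly(A) tail, so they are rare in poly(A)+ RNA. Of 23 tested none passed, with a median log2 value of 1.02 against GFP and 0.53 against the other knockdowns, and 20 were higher within both letters (87.0%). Among all 4448 genes tested with a mean under 50, where 22 of the 23 histone genes lie, 26.8% were higher within both letters and the median was -0.07. *Hist1h1a* was at 27.7 and 70.4 against 12.6 and 18.5 (1.45, SE 0.62, limma adjusted p = 0.413). *Hist1h4i* was at 15.8 and 17.6 against 1.15 and 8.78 (1.93, SE 0.61, limma adjusted p = 0.241), and its groups, like those of *Hist1h1a*, did not overlap. The best covered member of the list, *Hist1h1c*, was at 103 and 265 against 85.1 and 195 and did overlap (0.34). *Hist3h2a*, which is not in the list, was at 279 and 523 against 143 and 355 (0.74, limma adjusted p = 0.430) and was higher than in the other knockdowns (1.28, SE 0.26, 0.0132). The whole-cell median of the list was -0.08.

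Set against the whole-cell changes, no gene had a relative cytoplasmic level that passed (0 of 19072 genes, 0%), and at an unadjusted p below 0.05 there were 303 higher and 388 lower. This test took the change in the cytoplasm minus the change in the whole cell, in 1 limma fit over all 32 libraries, and shares the cytoplasmic libraries with the results above. The letter was a block within each fraction. The fit did not pair the cytoplasmic and whole-cell libraries of the same group and letter, so any variation they share was not removed. The lack of calls therefore does not show that no gene differed. In the whole cell alone, by the same fit, SRSF7 depletion had 16 genes higher (0.0839%) and 38 lower (0.199%) of 19072. Among the called genes above the estimates were 0.99 for *Zfp369*, 1.06 for *Coro6*, 0.88 for *9930005F22Rik* and -0.99 for *Rgs17*. *Dync2h1*, a gene of the motor of cilia, was at 51.4 and 46.6 against 118 and 83.9 in the cytoplasm and at 1637 and 1749 against 1786 and 1230 in the whole cell (-1.24). *Fip1l1* had -0.49, with 4648 and 4993 against 4813 and 4988 in the whole cell.

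Changes were also found in the form of the transcripts. Exon usage was tested as the log2 change of a bin relative to the other bins of its gene, over the 4 libraries with the letter as a block. Of 146580 bins, 354 in 328 genes were more used in the knockdown (0.242%) and 118 in 102 genes were less used (0.0805%) at a limma adjusted p below 0.1. None of their genes was among the 13 that passed for total level over 16 libraries, a fit of another form than that of the bins. As 0.0399% of all genes tested passed higher and 0.0342% lower, few or none would be shared in any case.
Of the bins more used 243 lay in the last exon of the gene, which is 68.6% (95% Wilson interval 63.6 to 73.3), against 14.7% of all bins tested. Of the less used bins 15 did (12.7%, 7.86 to 19.9). The intervals cover counting error only. More used bins were longer, with a median of 1167.5 bases against 120 over all bins, and last exons hold long 3′ UTRs. The share also grew with the level of the bin. Among bins with a mean of 5 to 20 scaled reads 36.8% of the more used ones were in last exons (8.44% of those tested), between 20 and 100 it was 43.8% (11.0%), between 100 and 500 it was 75.0% (18.9%), and from 500 up it was 80.3% (34.7%). After removal of bins that overlap an exon of another gene the shares were 67.6% of 324 and 12.2% of 115.
The count of bins depended on the libraries and on the block, since 49 more used and 26 less used bins passed without the letter. The fits that left out 1 library also had no letter, and took the arm of 1 sample to vary like the other. They gave 4 and 0 bins (without knockdown A), 7 and 5 (control A), 27 and 12 (control B) and 44 and 20 (knockdown B). With all 16 cytoplasmic libraries in the fit 55 and 34 passed, and 53 and 32 of these were among the bins above. In the fit without the letter the last-exon share of more used bins was 46.9%, and with all 16 libraries it was 49.1%. In the whole cell 170 bins of 180583 were more used (0.0941%), 50% of them in last exons, and 77 were less used (0.0426%). Of the 354 bins more used in the cytoplasm 309 had the same direction in the whole cell and 54 also passed there.

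**Figure D3:**
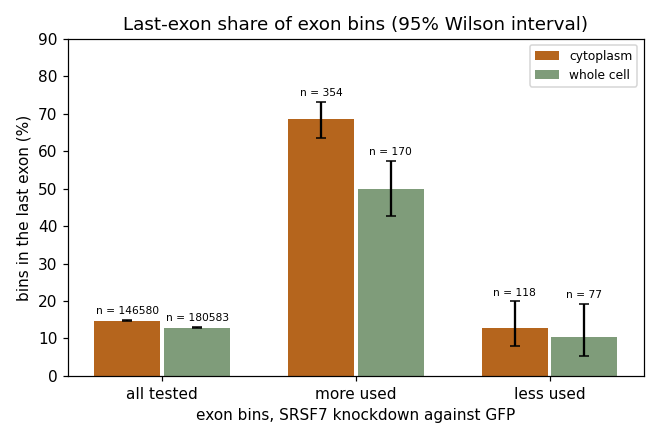
Percent of exon bins that lie in the last exon of their gene (vertical axis, from 0) among all bins tested, bins more used and bins less used after SRSF7 knockdown (horizontal axis), with 95% Wilson intervals as error bars and the number of bins above each bar. Orange bars show the cytoplasm, with 68.6% among the more used bins, and green bars the whole cell, with 50%.

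The shift ran along the last exon as well. In 3266 genes with at least 2 last-exon bins at 20 or more scaled reads in each of the 4 libraries, the median log2 ratio of the distal to the proximal bin was 0.546 and 0.558 in the knockdown and 0.471 and 0.439 in the control. The 12 other knockdown libraries ranged from 0.200 to 0.486, so the SRSF7 libraries had the highest values of all 16. The same held for the last exon against the rest of the gene over 7271 genes, with medians of -0.511 and -0.481 in the knockdown, -0.629 and -0.592 in the control and -0.869 to -0.576 elsewhere. The median over all last-exon bins moved with it, by 0.07 in log2 with 64.6% of them above 0, against -0.03 for internal and -0.08 for first exons. This shift across all genes lies under the last-exon counts, and its part in them was not tested. In the whole cell the distal to proximal ratio of the knockdown (0.293 and 0.281) and of the control (0.237 and 0.327) overlapped.
Within both letters the distal bin gained in 1470 of the 3266 genes (45.0%) and lost in 477 (14.6%). By more than 0.5 in log2 it gained in 98 and lost in 8, and after centring on the median of each letter, a choice made after seeing the data, in 57 and 15. The whole-cell numbers were 66 and 10, and 66 and 12 after centring. *Rpa1*, a gene of the single-strand DNA-binding complex, had 115 and 97.7 scaled reads in its distal bin against 44.9 and 37.4, while the proximal bin stayed at 783 and 726 against 726 and 748. *Sptlc2*, which encodes a subunit of the first enzyme of sphingolipid synthesis, had 198 and 174 distal reads against 96.4 and 96.3, at proximal levels of 344 and 372 against 350 and 442. Its log2 shifts of 1.05 and 1.10 recurred in the whole cell at 1.25 and 0.94. *Tpm2*, a tropomyosin gene, went the other way (-2.13 and -1.10), with proximal reads of 215 and 149 against 66.2 and 91.4.

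**Figure D4:**
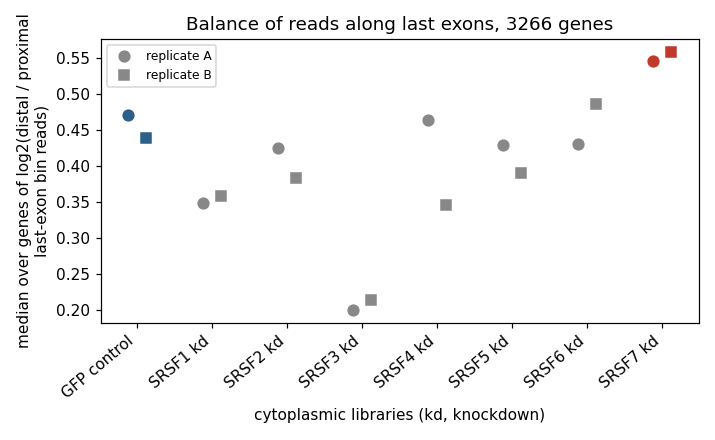
Median over 3266 genes of the log2 ratio of distal to proximal last-exon reads (vertical axis) in the 16 cytoplasmic libraries by group (horizontal axis), with circles for replicate A and squares for replicate B. The SRSF7 knockdown (red, 0.546 and 0.558) lay above the GFP control (blue, 0.471 and 0.439), and the SRSF3 knockdown held the lowest values (from 0.200).

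Single bins changed far more than this median. Among called bins with a mean of at least 20, 1 per gene, the largest gain was in bin 25 of *Eif2d*, a translation initiation factor gene (mm10 chr1:131178633-131179992, plus strand), which took 1.54% and 0.562% of the reads of the gene in the knockdown and 0.09% and 0.073% in the control. No library of another knockdown went above 0.524%, and usage rose by 3.60 on the log2 scale (SE 0.30, limma adjusted p = 2.75e-08). The bin shares 45 of its 1360 bases with exon bins of *Rassf5* on the other strand. No source used here gives the strandedness of the kit, so reads of the strands cannot be told apart.
*Jmjd6*, which encodes a hydroxylase that binds splicing factors, gained in bin 6 of its last exon (1.90% and 1.77% against 0.281% and 0.619%, log2 2.01, SE 0.22, limma adjusted p = 3.5e-06). *Cdc123*, an assembly factor gene of translation initiation, gained in its terminal bin (1.17% and 0.980% against 0.212% and 0.358%, log2 1.92, SE 0.27, 0.000172). Internal bins gained in *Papola*, the gene of the main poly(A) polymerase (bin 35, 0.759% and 0.638% against 0.141% and 0.144%, log2 2.27), and in *Mllt4*, a cell junction gene (bin 61, 1.48% and 1.07% against 0.277% and 0.332%, log2 2.10). For *Papola* and *Cdc123* no library of another knockdown reached the SRSF7 level.
The groups did not overlap in any of these bins, although knockdown A was above B in several. As the bins were picked by a test on these libraries, the lack of overlap is no added support. *Ivns1abp* gained in bin 10 (3.07% and 2.09% against 0.754% and 0.727%, log2 1.78, SE 0.27, limma adjusted p = 0.000867). The other bins among the 12 largest gains with that minimum were in *Vps25*/*Ramp2* (2.10), *Ptpn6* (1.99), *Slc39a8* (1.95), *Gorasp2* (1.77), *Gm23451*/*Top2a* (1.73) and *Dlgap5* (1.73).

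Of the less used bins 89 of 118 were internal (75.4%), against 78.9% of all bins tested. Bin 4 of *Pphln1*, which encodes a subunit of the HUSH silencing complex, fell from 3.95% and 4.29% in the control to 0.760% and 1.40% (log2 -1.95, SE 0.21, limma adjusted p = 3.44e-05). It was at 3.06% or more in all 12 libraries of the other knockdowns. Bin 11 of *Mtrr*, the gene of the reductase that reactivates methionine synthase, fell from 9.79% and 9.08% to 2.53% and 4.21% (-1.60, SE 0.20, 8.65e-05), again below every other library (from 7.33%).
Bin 7 of *Rtn4*, the reticulon gene that encodes Nogo, was the longest of the 12 largest losses with the same minimum at 2361 bases and fell from 14.5% and 10.3% to 4.69% and 6.24% (-1.31, SE 0.16, limma adjusted p = 2.57e-05). Bin 14 of *Dnajb6*, a chaperone gene, fell from 2.66% and 3.42% to 0.817% and 1.76% (-1.32, SE 0.18, 0.000277), and 4 libraries of other knockdowns were as low. All of these falls recurred in the whole cell (*Pphln1* -1.67, *Mtrr* -0.97, *Rtn4* -0.99, *Dnajb6* -1.89, each past the threshold there).
The other bins among the 12 largest losses with that minimum, 1 per gene, were in *Gm21685* (-2.05), *Cds2* (-1.77), *Gpn1* (-1.74), *Dtymk* (-1.54), *Asb7* (-1.43), *Galnt10* (-1.40), *Trappc13*/*2410002O22Rik* (-1.33) and *Tgif1* (-1.33). The *Gpn1* bin shares 179 of 265 bases with *4930566F21Rik* on the other strand.

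Among SR genes, last-exon bins gained in *Srsf3* (bin 16, 5.30% and 5.26% against 3.75% and 3.77%, log2 0.50, SE 0.11, limma adjusted p = 0.0413) and *Srsf6* (bin 12, 25.4% and 24.5% against 18.1% and 19.3%, log2 0.55, SE 0.11, 0.0435). Both were called by few of the alternatives (4 and 3 of 10), and neither passed with all 16 libraries, without the block or in the whole cell. No bin of *Srsf7* or *Tra2b* passed. In *Srsf7* the bin with the largest change, bin 4, was at 5.66% and 7.09% against 5.99% and 5.29%, and these groups overlapped.

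Tandem 3′ UTRs are pairs of poly(A) sites in the same last exon that give a short and a long mRNA. The authors estimated the share of the long isoform with MISO on replicates pooled per condition, so the values have an interval from the authors' model but no replicate error, and no test was made. Of 1057 events with at least 100 informative reads in both conditions, the long isoform was at least 10 points higher after SRSF7 knockdown in 93 (8.80%) and lower in 16 (1.51%). The authors' intervals lay apart in 44 of the former and 3 of the latter. Counting any change, 506 events were higher, 211 lower and 340 the same. The median share was 83% in the control and 86% in the knockdown, while the median change per event was 0 points. In the whole cell 68 events were higher and 22 lower, and of 87 higher events kept in both fractions 70 had the same direction there.

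A stretch of 30 bases at the short (proximal) and at the long (distal) 3′ end, chosen to hold the signal where 1 was found, is given for the 4 largest increases, for *Vegfa* and for the 2 largest decreases, because the balance between these ends is what moved. They are read 5′ to 3′ on the transcribed strand from mm9 (NCBIM37), and capitals mark AATAAA or ATTAAA, the main forms of the poly(A) signal.
*Cdc42ep3* proximal, chr17:79733346-79733375, minus strand: aagttgaaatatatttttatgtgcctttgg
*Cdc42ep3* distal, chr17:79733062-79733091, minus strand: taccacgcAATAAAgagtaaatgctaaaat
*Tmem135* proximal, chr7:96289034-96289063, minus strand: ctcaagacATTAAAaatacttaacctccct
*Tmem135* distal, chr7:96288715-96288744, minus strand: aatgaagtATTAAAgcactgagaacgcctg
*Tub* proximal, chr7:116177811-116177840, plus strand: actttttgAATAAActttttggtattctga
*Tub* distal, chr7:116177945-116177974, plus strand: gtatcaacacATTAAActtgaactgtttga
*Depdc5* proximal, chr5:33334180-33334209, plus strand: gggatattcggaacagaacctcctgctttc
*Depdc5* distal, chr5:33334290-33334319, plus strand: cagaatctAATAAAgccctccctccctccc
*Vegfa* proximal, chr17:46154168-46154197, minus strand: agaaaaatagagaattctacatactaaatc
*Vegfa* distal, chr17:46153947-46153976, minus strand: cattttgtATTAAAgaattgaattctgatc
*Anxa3* proximal, chr5:97274845-97274874, plus strand: tcaaaaccATTAAAcataaatcaggatact
*Anxa3* distal, chr5:97274957-97274986, plus strand: atatttcaaaatacatttgttgtaaatgct
*Sox11* proximal, chr12:28024675-28024704, minus strand: tataattaAATAAAcagaccattgcatatt
*Sox11* distal, chr12:28020084-28020113, minus strand: aaaagaccAATAAAaatcgtgtgatcaatc

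In *Cdc42ep3*, *Depdc5* and *Vegfa* the distal window holds a signal and the proximal window does not. In *Anxa3*, where the short form gained in the cytoplasm, it is the reverse. This did not hold for the groups as a whole. Within the 40 bases before the proximal end AATAAA occurred in 54.8% of the 93 higher events, in 50% of the 16 lower events and in 42.2% of all 1057, and ATTAAA alone in 17.2%, 18.8% and 15.1%. At the distal end AATAAA occurred in 63.4%, 37.5% and 65.5%, and ATTAAA alone in 19.4%, 37.5% and 18.3%. SRSF7 is known to bind GA-rich RNA, and the pairs GACGAC and GACGAT and GATGAC and GATGAT within 100 bases before the proximal end were found in 7 of the 93 higher events (7.53%), 3 of the 16 lower events and 50 of all 1057 (4.73%). Before the distal end these pairs were found in 9 of the 93 higher events (9.68%), 1 of the 16 lower events and 40 of all 1057 (3.78%). All motifs were searched on the transcribed strand only, and a match is a description of the sequence and not a site shown to be used. The extensions had a median of 415 bases in the higher and 286.5 in the lower events, against 678 overall.

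The long form of *Cdc42ep3*, a gene of a CDC42 effector, went from 28% (authors' interval 16 to 46) to 61% (42 to 83), an extension of 285 bases outside annotated exons. Its long form was 10 points lower in the whole cell. In *Tmem135* the long form went from 56% (44 to 69) to 86% (75 to 96), in *Depdc5*, a gene of an amino acid sensing complex, from 58% (47 to 70) to 85% (73 to 94) and in *Tub* from 41% (19 to 68) to 70% (43 to 97), with 4% and 30% in the whole cell. The intervals of *Tmem135* and *Depdc5* lay apart, and those of *Cdc42ep3* and *Tub* overlapped.
*Vegfa*, the vascular endothelial growth factor gene, had the most reads of the 8 largest increases, at 1501 and 1428 that fit 1 or both isoforms. Its long form, 225 bases longer, went from 40% (32 to 50) to 64% (54 to 75), while whole-cell shares were 30% and 31%. *Slain2* (41% to 68%), *Cbln1* (44% to 71%) and *Dnhd1*/*Fxc1* (32% to 55%) completed this group. The total cytoplasmic level of *Vegfa* was 853 and 757 against 1006 and 967 and did not pass (-0.31, limma adjusted p = 0.506).
Among decreases, *Anxa3* went from 51% (34 to 71) to 23% (13 to 36), but the other way in the whole cell, from 33% to 42%. *Sox11*, a transcription factor gene, went from 85% (82 to 88) to 62% (59 to 65) over an extension of 4588 bases, and from 87% to 76% in the whole cell. *Fam5b* (75% to 55%), *Shoc2* (76% to 59%), *Chd6* (70% to 53%), *Ankrd39* (89% to 73%), *Rnase4* (35% to 19%) and *Phyhipl* (45% to 30%) followed. Among these 8 the intervals lay apart for *Sox11* and *Fam5b*.
Of the genes with 1 of the 93 events 90 were tested for total level, none passed against GFP, and their median log2 change was -0.07, against -0.02 over all genes with an event. In 35 of them the last exon also had 2 bins, and the distal bin gained within both letters in 25 (71.4%), against 224 of 403 over all events (55.6%). It lost in 6 (17.1%), against 52 of 403 (12.9%). For the 16 lower events it gained in 0 of 4 and lost in 3. Bins and isoforms were counted from the same reads, so they are not independent of each other.

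**Figure D5:**
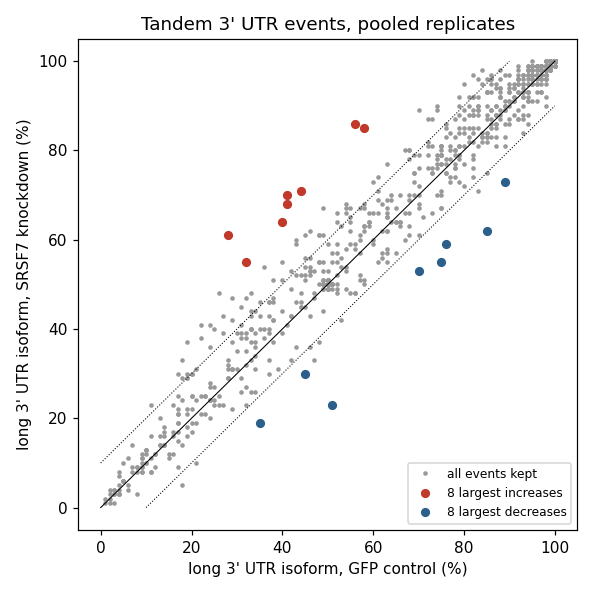
Percent of the long isoform in the GFP control (horizontal axis) and the SRSF7 knockdown (vertical axis) for 1057 tandem 3′ UTR events (gray), with the 8 largest increases in red and the 8 largest decreases in blue. The solid line marks equal shares and the dotted lines a change of 10 points, beyond which lay 93 events above and 16 below.

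Alternative last exons, where the isoforms end in different exons, moved in both directions. Isoform A of the authors' pair is called the proximal exon here. The order could be read in 7720 of 7742 events listed, and isoform A lay nearer the gene start in 7633 and isoform B in 87. Of 5101 events with enough reads, the share of the proximal exon was at least 10 points higher in 61 (1.20%) and lower in 74 (1.45%). The authors' intervals lay apart in 41 and 43. Counting any change, 1351 were higher, 1957 lower and 1793 the same. In the whole cell 98 of 6107 events were higher and 49 lower by 10 points, and 2607 and 1720 by any amount. The largest change was again in *Eif2d*, whose proximal last exon went from 93% (90 to 95) to 55% (51 to 59), with whole-cell shares of 88% and 57%. *Eif2d* as a whole was at 5810 and 5736 against 5475 and 5718 scaled reads (0.03 in log2).
*Ppm1b*, a protein phosphatase gene, went from 57% (54 to 59) to 31% (29 to 33), and from 42% to 25% in the whole cell. Its total level of 956 and 1178 against 1580 and 1364 did not pass (-0.49, limma adjusted p = 0.260). *Dab1*, an adaptor gene of reelin signaling, went from 48% (44 to 51) to 28% (25 to 31). *Ccpg1* (35% to 16%), *Safb2* (30% to 11%), *Pgm3* (29% to 11%), *Katnal2* (67% to 49%) and *Mical3* (64% to 46%) completed the 8 largest decreases.
On the other side *Csnk1e*, a casein kinase gene, went from 28% (26 to 30) to 50% (48 to 52), and was 13 points higher in the whole cell. *Slc35b2*, the gene of a sulfate donor transporter of the Golgi, went from 18% (17 to 20) to 37% (35 to 38), and from 14% to 33% in the whole cell. *Rabep1* (48% to 70%), *Camta1* (45% to 66%), *Tut7* (38% to 59%), *Tbc1d31* (61% to 81%), *Zfp655* (17% to 35%) and *Nisch* (47% to 65%) completed the 8 largest increases. In the whole cell 43 of 56 higher and 48 of 69 lower events had the same direction.
Of the 408 genes with a called exon bin 195 had an isoform event with enough reads, and 27 of them changed by at least 10 points in at least 1 event (13.8%). Over all 3308 genes with both kinds of measurement 197 did (5.96%).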

How the data were processed

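Cytoplasmic and whole-cell poly(A)+ RNA-seq of P19 cells was analysed from tables made by the authors. Per the submitters' processing notes, the tools were TopHat2 (2.0.9 and 2.0.10) with Bowtie2 (2.1.0), Cufflinks (2.1.1), cutadapt and CASAVA (1.8.2), and the builds mm10 and mm9. The gene tables deposited by the authors list 38201 genes as signal, reads estimated per gene and scaled to a common depth, so they are not whole counts. The FPKM values are the authors' pooled values per condition. The exon-bin tables hold signal deposited by the authors as reads divided by a size factor. From them whole reads were recovered for 100% of values within 0.05 of a whole number, giving 52685425 and 63477689 reads in SRSF7 A and B, 42726617 and 54080490 in GFP A and B, and 41417374 to 72741730 in the 12 other cytoplasmic libraries. Isoform shares are fractions that the authors estimated with MISO on pooled replicates, in mm9. Columns with the authors' own fold changes, p-values and Bayes factors were not used. The number of unmapped columns of per-sample values was 0.

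Genes were tested with limma 3.58.1 (R 4.3.3) on log2(value + 1), after TMM scaling and edgeR 4.0.16 filterByExpr, with a variance trend, over all 16 cytoplasmic libraries with group and replicate letter as terms, at a Benjamini-Hochberg adjusted p below 0.05. Fold changes are on that log2 scale, which understates changes of low genes. Whole-cell and relative values of genes came from 1 limma fit over all 32 libraries. Its terms were group by fraction and the letter within each fraction. Genes with failed estimates (15 in the cytoplasm, 10 in the whole cell) were left out. For exon bins, those whose mean reached 5 entered limma diffSplice (pseudocount 0.5, 4 libraries, letter as block), called at an adjusted p below 0.1. Isoform events needed at least 100 reads that fit 1 or both isoforms in both conditions and a change of at least 10 points. They have no test. Counts of summed exon-bin reads were also tested with edgeR and DESeq2 1.42.0. Tables and figures were made with Python 3.11.15, numpy 2.4.6, pandas 2.3.3, scipy 1.17.1 and matplotlib 3.10.9.

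The letters pair the libraries. The A minus B differences of 11800 genes with a mean of at least 100 correlated in all 28 pairs of groups (Spearman 0.449 to 0.827), with 0.771 for SRSF7 and GFP. On simulated data the gene test found 98% of genes changed 2-fold and 100% of those changed 4-fold, with 8 unchanged genes called of 17126 tested. The bin test found 86% and 100%, with 25 unchanged bins called of 144524. These shares hold for the spread that was simulated. In the real libraries *Srsf7*, at 46.2% of the control level, did not pass against GFP (SE 0.21, limma adjusted p = 0.0551). The share of real 2-fold changes that the gene test finds can therefore not be read from the simulation. Depth limits precision through counting error, and Wilson intervals cover that error only.

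Genes were named if past the threshold, with a mean of at least 50 over the 4 libraries and the same direction in both letters, up to 15 per direction, filled to 10 by the smallest p. Named bins were the 12 largest per direction with a mean of at least 20, 1 per gene, and named isoforms the 8 largest per direction. The members and gene lists were chosen with earlier results of these data known. The result of 1 list member is not reported here.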

Additional observations from a re-analysis of the deposited data

Results flagged for a closer look

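Among the 47 genes named by the rule with at least 50 scaled reads in each of the 8 libraries, 11 had a change of 1 sign in the cytoplasm and of the opposite sign in the whole cell, within both letters (23.4%). Over all 12174 genes tested with that many reads 1845 did (15.2%), and as the rule took some of its genes by this difference, the shares are not comparable. The cytoplasmic minus whole-cell log2 change was tested as an interaction in limma over all 32 libraries, and none of the 11 passed an adjusted p of 0.05. The difference was positive in *Fam193b* (0.86), *Deaf1* (0.83), *Ccnl2* (0.61), *Vkorc1* (0.61) and *Grina* (0.56). *Deaf1*, a transcription factor gene, was at 1146 and 994 scaled reads against 607 and 641 in the cytoplasm, and at 1536 and 1497 against 1646 and 1582 in the whole cell. It was negative in *Dab1* (-0.73), *Prps1l3* (-0.68), *Zfhx3* (-0.65), *Intu* (-0.62), *Asxl2* (-0.58) and *Pafah1b1* (-0.56). *Dab1* was at 664 and 799 against 987 and 1066 in the cytoplasm, and at 1677 and 1715 against 1419 and 1530 in the whole cell. Groups of 2 libraries are too small for a check of single outlying samples.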

How the results depend on the processing

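The letter as a replicate block decided most calls. Without the replicate block 0 genes were higher and 0 lower against GFP (limma, 306 and 370 at an unadjusted p below 0.05), 2 and 1 against the other knockdowns, and 49 and 26 bins were more and less used. With only the 4 libraries, 892 and 725 genes passed with the block and 0 and 0 without it. Against GFP, summed exon-bin reads gave 84 higher and 93 lower genes with DESeq2, 15 and 16 with edgeR and 14 lower with limma, a pseudocount of 10 gave 15 and 12, and no filter on low values gave 4 higher. Without 1 library the counts ranged from 1 to 7 higher and 0 to 7 lower against GFP, from 0 to 27 and 0 to 54 against the other knockdowns, and from 4 to 44 and 0 to 20 for bins, where these fits had no block. No filter gave 176 and 310 against the other knockdowns. All 16 libraries in the bin fit gave 55 and 34, and edgeR gave 160 more used. The last-exon share of more used bins was 46.9% without the block, 49.1% with 16 libraries and 47.5% when only terminal bins were counted, and of less used bins 3.85%, 5.88% and 5.08%. The count of terminal bins has another background, as they made up 6.06% of all bins tested, against 14.7% for last-exon bins. At 20 points 9 and 3 tandem events and 6 and 4 last-exon events remained past the threshold. *Fam69a* had the opposite sign on summed bin reads (-0.18 with limma, edgeR and DESeq2). For these changes the cause was not tested, beyond the smaller number of libraries. The relative level had 0 calls under all alternatives run. Of the 12 called genes with a mean of at least 50, 11 passed on summed bin reads with each tool. Count tests planned for the gene table were not run, because whole reads could not be recovered from it.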
